A study of Mus musculus with 8 samples.

Results

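The enzymes and the transporter described here move arginine into macrophages and spend it, make itaconate, and break down tryptophan. They are 8 genes chosen by name: Arg1, Nos2, Acod1, Ido1, Il4i1, Odc1, Ass1 and Slc7a2. Of these, 7 have a row among the 23469 genes of the table, and Ido1 was not analysed here. Only 4 of the 7 (Arg1, Odc1, Acod1 and Slc7a2) reached a mean of 1 TPM (a transcript level corrected for gene length and library size) and were tested among 8801 genes. Ass1, Nos2 and Il4i1 lay under that minimum.

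The libraries are bulk RNA-seq of macrophages sorted from the ascites of mice bearing ovarian tumors, 4 libraries of AeEM (ascites-enriched embryonic-derived macrophages) and 4 of AeMM (ascites-enriched monocyte-derived macrophages). Both groups came from female C57BL/6 mice of the genotype labeled Ms4a3TdT, in which Cre driven by Ms4a3, a gene of granulocyte-monocyte progenitors, switches on tdTomato in the progeny of those progenitors. tdTomato-negative cells were taken as AeEM and tdTomato-positive cells as AeMM, so a monocyte-derived cell in which Cre did not act would be sorted as AeEM. All mice had received intraperitoneal ID8 cells, a mouse ovarian surface epithelial line, at 4 to 5 weeks of age, the ascites was collected 65 days later, and the labels give no further treatment. No library came from a mouse without a tumor, so every comparison is between 2 populations of the same diseased cavity. The 8 libraries held 8498 to 8753 genes at 1 TPM or more, and their read depth is unknown because the table holds no counts.

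Arginine enters a macrophage mainly through cationic amino acid transporters such as Slc7a2 and is then spent along competing routes. Arginase 1 (Arg1), an interleukin-4 target, splits it to ornithine and urea, and ornithine feeds polyamine synthesis through ornithine decarboxylase (Odc1). Inducible nitric oxide synthase (Nos2), induced by interferon-gamma and bacterial products, makes nitric oxide and citrulline, which argininosuccinate synthase (Ass1) can return toward arginine. Acod1 is the mitochondrial enzyme that turns cis-aconitate into itaconate. Ido1 starts the breakdown of tryptophan to kynurenine, and Il4i1 is a secreted oxidase of phenylalanine and tryptophan. High Arg1 has long been used as a mark of alternatively activated macrophages and high Nos2 as a mark of classically activated mouse macrophages.

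In both AeEM and AeMM, Arg1 lay far above the other members, Odc1 came next, Acod1 and Slc7a2 followed at a few TPM, and Nos2 and Il4i1 lay at or near 0. None of the 4 tested members passed the test between the groups (limma, Benjamini-Hochberg adjusted p under 0.05 over 8801 genes), where 2.41% of all tested genes did (212 genes, of which 110, or 1.25%, were higher and 102, or 1.16%, lower in AeEM). None of the 4 passed at an unadjusted p under 0.05 either, a mark that 18% of all tested genes (1587 genes) reached. The authors had adjusted the values between 3 sets, 1 for each of replicates 1 and 2 and 1 for the remaining libraries. The fit above takes no account of these sets, so its p-values can be too small and its intervals too narrow. In a further limma fit that also held a term for these sets (the set-adjusted fit), 0.159% of genes passed (14 genes, 0.102% higher and 0.0568% lower in AeEM), and again 0 of the 4 members. All 4 differences were positive, from 0.16 to 0.25 on the log2 scale, against a median of -0.01 and 48.8% positive over all tested genes. In bulk libraries such as these, fewer expressing cells and less RNA per cell cannot be told apart.

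**Figure D1:**
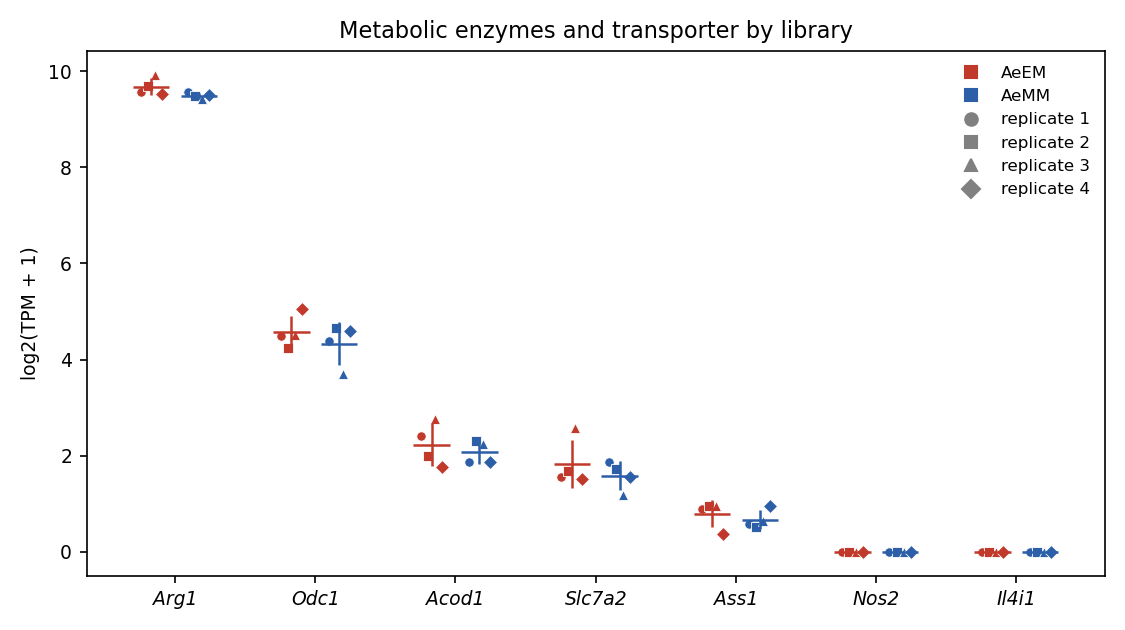
Level of each member in each library, as log2(TPM + 1) on the vertical axis, AeEM in red and AeMM in blue, with the marker shape giving the replicate, the horizontal bar the group mean and the vertical bar 1 SD over 4 libraries. Arg1 sits between 9.41 and 9.93 in all 8 libraries, Odc1 between 3.69 and 5.04, Acod1 and Slc7a2 overlap, and Nos2 and Il4i1 lie at or near 0.

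Slc7a2, the transporter that supplies arginine (chr8:40862396-40922308, plus strand, mm10), was expressed at a low level. It measured 1.96, 2.21, 4.96 and 1.85 TPM in AeEM replicates 1 to 4, and 2.65, 2.31, 1.26 and 1.95 TPM in AeMM replicates 1 to 4. The groups overlapped: AeEM replicate 3 was the highest of the 8 libraries and AeMM replicate 3 the lowest, while the other 3 AeEM libraries lay inside the range of AeMM. The difference was 0.25 on the log2(TPM + 1) scale (SE 0.26, 95% interval -0.33 to 0.83, limma adjusted p = 0.68, and 0.87 in the set-adjusted fit). By set it was -0.30 in replicate 1, -0.05 in replicate 2 and 0.67 over replicates 3 and 4. Without AeEM replicate 3 the Slc7a2 difference was 0.00274 and without AeMM replicate 3 it was 0.11, so its size rests on those libraries. In the annotation, 6.95% of the exon bases of Slc7a2 (635 of 9135) overlap an antisense gene, Gm26584, and no source used here states whether the counting used strand.

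The cationic amino acid transporters Slc7a1 and Slc7a7 were measured at low levels as well. Slc7a1, the widely expressed transporter of the same family, lay between 0.184 and 0.662 TPM and was 0.0808 to 0.480 times the level of Slc7a2 within a library. Slc7a7, which with the Slc3a2 heavy chain exchanges cationic for neutral amino acids, was 1.02 to 3.30 times the level of Slc7a2, and its difference was 0.17 (SE 0.12, limma adjusted p = 0.52). Slc7a2 was therefore above its close relative Slc7a1 in all 8 libraries and below Slc7a7 in all 8.

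Arg1 (chr10:24915221-24927484, minus strand) was among the most abundant transcripts of these macrophages. By mean TPM over the 8 libraries it ranked 94 of the 23469 genes. It measured 760, 827, 975 and 741 TPM in AeEM replicates 1 to 4, and 756, 715, 681 and 730 TPM in AeMM replicates 1 to 4. Of the AeEM libraries, 3 lay above every AeMM library and the fourth, replicate 4, lay inside the AeMM range, so the groups overlapped. On the log2 scale AeEM averaged 9.68 ± 0.18 and AeMM 9.49 ± 0.06 (SD, n = 4 each), and the AeMM libraries were the more uniform. The difference was 0.19 (SE 0.09, 95% interval -0.01 to 0.39, a fold of 1.14 with an interval of 0.993 to 1.31), which did not pass the test (limma adjusted p = 0.30, and 0.64 in the set-adjusted fit).

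The Arg1 difference was uneven between libraries. It was 0.01 in replicate 1, 0.21 in replicate 2 and 0.27 over replicates 3 and 4, where replicate 3 gave 0.52 and replicate 4 gave 0.02. Without AeEM replicate 3 it fell to 0.11 (limma adjusted p = 0.40). With all 8 libraries, the upper end of the interval was a fold of 1.31, and 1.35 in the set-adjusted fit. Within each library Arg1 exceeded Arg2, the mitochondrial arginase, by between 310-fold and 1643-fold. Arg2 itself measured 2.10, 1.34, 0.593 and 0.912 TPM in AeEM and 0.532, 1.06, 1.27 and 2.36 TPM in AeMM, overlapping widely.

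Nos2 (chr11:78920787-78960254, plus strand), the enzyme that competes with arginase for arginine, lay at or near 0. Its highest value in any of the 8 libraries was 0.00216 TPM, in AeMM replicate 3, and it was not tested. The pair of replicate 1 held a single Nos2 value, as 4110 of the 23469 genes did. The related synthase Nos1 also lay at or near 0. It shared that level with 3461 genes (14.7% of the table), whereas the housekeeping transcripts Tbp and Hprt had lowest values of 1.55 and 5.72 on the log2 scale. No fold between Arg1 and Nos2, and no fold of Nos2 between the groups, is given against a level at 0. The enzymes that make tetrahydrobiopterin, the cofactor of nitric oxide synthases, were present all the same: Gch1, the first enzyme, measured 5.33 to 6.998 TPM in AeEM and 5.82 to 7.58 TPM in AeMM (difference -0.11, SE 0.11, limma adjusted p = 0.67).

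Ass1 (chr2:31470207-31520672, plus strand), which joins citrulline to aspartate, was under the minimum of 1 TPM. It measured 0.863, 0.921, 0.925 and 0.290 TPM in AeEM replicates 1 to 4, and 0.488, 0.435, 0.550 and 0.943 TPM in AeMM replicates 1 to 4. In each group 3 libraries lay close together and replicate 4 stood apart, low in AeEM and high in AeMM, so the groups overlapped. In a fit with no minimum, over all 23469 genes, the Ass1 difference was 0.12 (SE 0.17, 95% interval -0.28 to 0.52, limma adjusted p = 0.74). Asl, argininosuccinate lyase, the next enzyme of the cycle, was 6.86 to 17.4 times as abundant as Ass1, at 5.06 to 6.75 TPM in AeEM and 6.00 to 7.60 TPM in AeMM. Otc and Cps1, the mitochondrial enzymes that complete the urea cycle in liver, lay at or near 0 in every library.

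Odc1 (chr12:17544794-17551505, plus strand), which opens polyamine synthesis, was the second most abundant member. It measured 21.5, 17.8, 21.8 and 32.005 TPM in AeEM replicates 1 to 4, and 19.98, 24.3, 11.9 and 23.1 TPM in AeMM replicates 1 to 4. AeEM replicate 4 was the highest library and AeMM replicate 3 the lowest, and the remaining 6 libraries of the groups were interleaved. The Odc1 difference was 0.24 (SE 0.24, 95% interval -0.30 to 0.77, limma adjusted p = 0.67, and 0.85 in the set-adjusted fit). It was 0.10 in replicate 1, -0.43 in replicate 2 and 0.63 over replicates 3 and 4, so the sets differed in direction. Without AeMM replicate 3 the Odc1 difference was 0.02 and without AeEM replicate 4 it was 0.08, so its size rests on those libraries.

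Acod1 (chr14:103046977-103056573, plus strand), the itaconate enzyme, was expressed at a few TPM in both groups. It measured 4.31, 2.97, 5.78 and 2.39 TPM in AeEM replicates 1 to 4, and 2.64, 3.93, 3.75 and 2.62 TPM in AeMM replicates 1 to 4. The AeEM libraries held both the highest and the lowest value, and all 4 AeMM libraries lay between them. The Acod1 difference was 0.16 (SE 0.22, 95% interval -0.35 to 0.67, limma adjusted p = 0.78, and 0.92 in the set-adjusted fit). By set it was 0.54 in replicate 1, -0.31 in replicate 2 and 0.21 over replicates 3 and 4, and it changed sign to -0.02 without AeEM replicate 3.

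Il4i1 (chr7:44816387-44840809, plus strand) lay at or near 0, with a highest value of 0.00208 TPM. Its 4 libraries of replicates 3 and 4 held the same value to within 1e-06 on the log2 scale, as 4980 of the 23469 genes did. The pair of replicate 2 likewise held a single Il4i1 value, as 5188 genes did. The libraries of replicates 2, 3 and 4 therefore carry no difference for Il4i1. Of the exon bases annotated to Il4i1, 86.3% (3520 of 4080) overlap other genes, 3423 of them Tbc1d17 and 82 Atf5 on the opposite strand and 97 Nup62 on the same strand. Reads from these bases could have been left unassigned or given to the neighbors, and a low value here is therefore uncertain. Among the 4 tested members no set of libraries held repeated values.

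**Figure D2:**
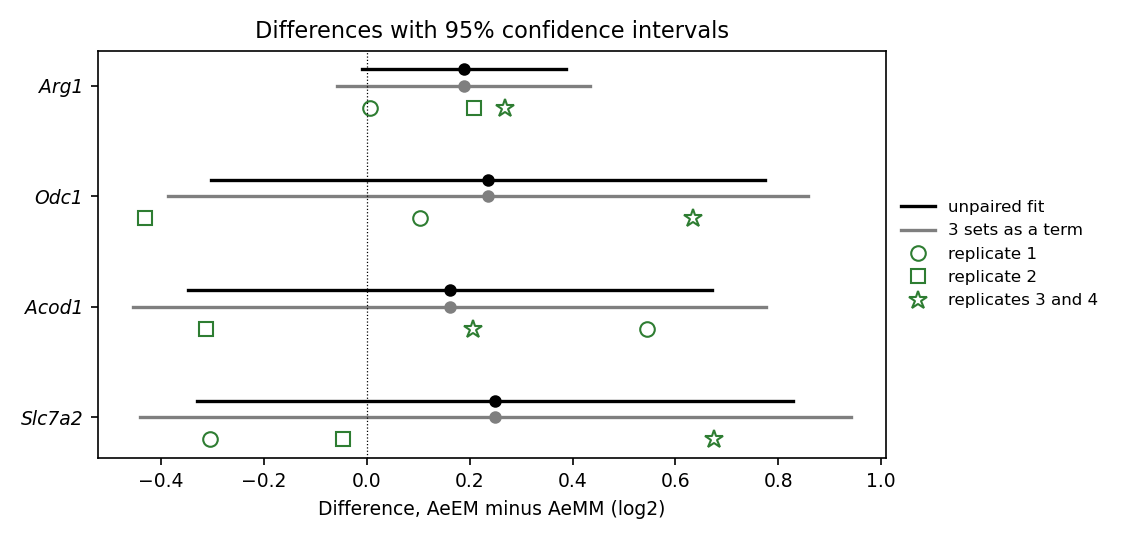
Difference AeEM minus AeMM on the log2 scale for the 4 tested members, with the 95% interval of the unpaired fit in black and of the set-adjusted fit in gray (labeled 3 sets as a term), and the difference within each set as open green symbols. Each interval includes 0, and for Odc1, Acod1 and Slc7a2 the sets lie on both sides of 0.

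Ordered by level, Arg1 stood above Odc1 in all 8 libraries, 23.1-fold to 57.1-fold in TPM, and Odc1 above Acod1 in all 8, 3.18-fold to 13.4-fold. Acod1 and Slc7a2 did not separate: Acod1 was the higher in 7 of 8 libraries, and their ranges overlapped. Slc7a2 exceeded Ass1 2.07-fold to 5.36-fold in all 8 libraries. Nos2 and Il4i1 could not be ordered. The step from Arg1 to Odc1 was 5.11 ± 0.45 in AeEM and 5.16 ± 0.40 in AeMM on the log2 scale (SD, n = 4 each), and that from Odc1 to Acod1 2.34 ± 0.66 and 2.27 ± 0.57, in each case closer between the groups than their spread.

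The extreme values of the members fell mostly in replicate 3 of each group. AeEM replicate 3 was the highest of the 8 libraries for 3 of the 4 tested members (Arg1, Acod1 and Slc7a2), as it was for 27.5% of all tested genes. AeMM replicate 3 was the lowest for 3 of the 4 (Arg1, Odc1 and Slc7a2), as it was for 19.1% of all tested genes. Extremes were rarer in replicates 1 and 2 over all tested genes. Each of those libraries was the highest for 1.47% to 7.43% of genes and the lowest for 1.62% to 7.62%. The part of the adjustment between sets in this was not tested. AeEM replicate 3 also held the highest summed level of 7 markers of large peritoneal macrophages, 238 TPM against 81.2 to 94.1 TPM in the other AeEM libraries and 38.0 to 53.7 TPM in AeMM, of which Cxcl13 alone gave 166 TPM, and 0 of the 5 tested markers passed (limma, with 4 at an unadjusted p under 0.05). All 5 tested markers had a positive difference, with a median of 0.87. Timd4, Prg4 and Alox15 did not overlap between the groups, 60% of the 5 against 12.2% of all tested genes. The part of large peritoneal macrophages in the Arg1, Acod1 and Slc7a2 values was not tested. Gata6, the factor that defines large peritoneal macrophages, lay at 0.212 to 0.363 TPM in all 8 libraries.

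The sort kept F4/80-positive CD11b-positive cells and gated out cells bearing Ly6G (neutrophils), Siglec F (eosinophils) or Ly6C (monocytes). All 7 macrophage markers were tested and 0 passed (limma, with 3 at an unadjusted p under 0.05). Of these, 6 had a negative difference, and the median was -0.09. Adgre1, Csf1r and Mertk (lower in AeEM) and Cd68 (higher in AeEM) did not overlap between the groups, 57.1% against 12.2% of all tested genes. The 4 monocyte markers summed to 166 to 257 TPM in AeEM and 142 to 195 TPM in AeMM, and Ly6c2 alone passed, lower in AeEM (limma adjusted p = 0.048, and 0.25 in the set-adjusted fit). Of the 4 differences, 2 were positive and 2 negative, from -1.55 to 0.53 with a median of 0.03, and 2 were at an unadjusted p under 0.05 (limma). The summed level of the 7 dendritic cell markers was 44.1 to 106 TPM in AeEM and 6.29 to 13.4 TPM in AeMM, with the defining genes Flt3, Zbtb46, Xcr1 and Clec9a under the minimum. Cd209a and Itgax passed, higher in AeEM, and in the set-adjusted fit Cd209a passed (limma adjusted p = 0.033) and Itgax did not (0.11). The summed level of the 7 neutrophil markers with a row was 19.0 to 22.8 TPM in AeEM and 32.1 to 46.7 TPM in AeMM, nearly all of it S100a8 and Csf3r, with Retnlg at 0.113 TPM or less and Ngp at 0.0355 TPM or less. S100a8 passed, lower in AeEM (limma adjusted p = 0.0044), and did not pass in the set-adjusted fit (0.060). The part of monocytes, dendritic cells or neutrophils in the members' values was not tested. B cell markers summed to 34.3 to 84.6 TPM in AeEM and 65.2 to 76.3 TPM in AeMM, and 0 of 4 passed (limma, with 0 at an unadjusted p under 0.05). T and NK cell, mast cell, eosinophil, fibroblast and endothelial markers summed to at most 4.51 TPM in any library. For the 7 tumor and mesothelial markers, which summed to 3.70 to 6.65 TPM, the 4 libraries of replicates 3 and 4 repeated a single value per gene, so these markers say nothing of differences there.

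**Figure D3:**
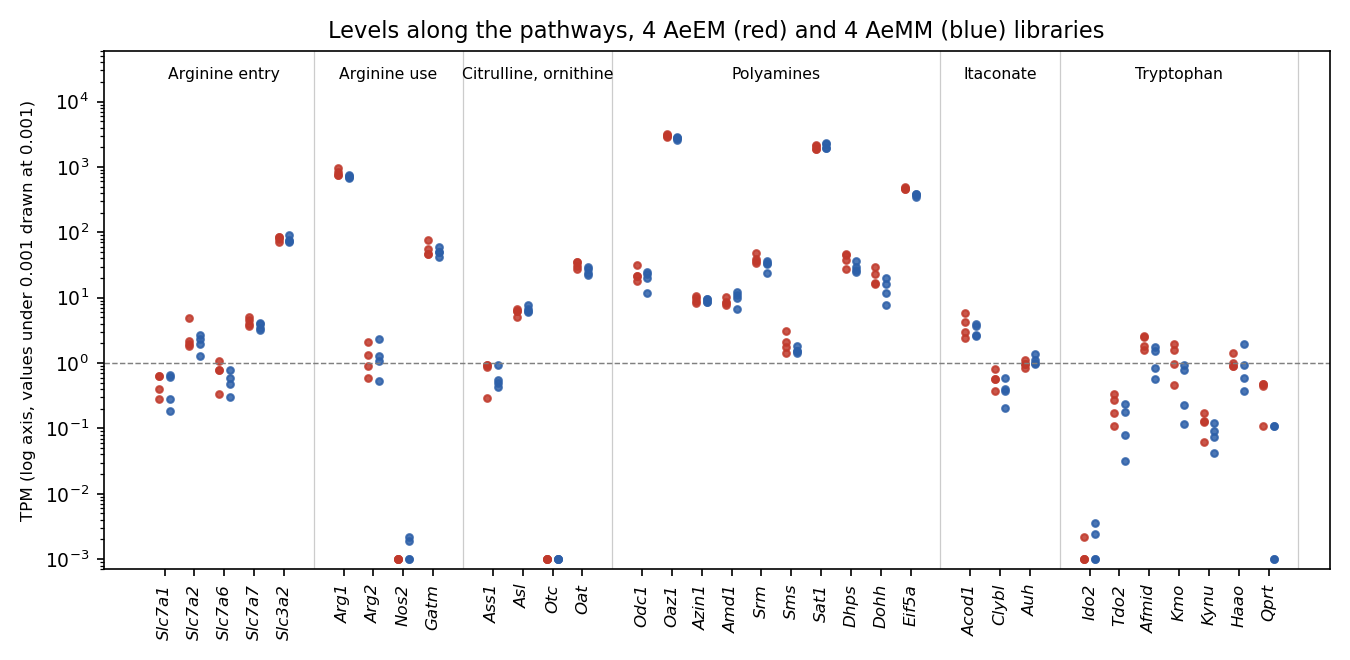
Level in TPM, on a log axis, of members and other genes along the arginine, polyamine, itaconate and tryptophan routes, with each point a library, AeEM in red and AeMM in blue, the dashed line at the minimum mean of 1 TPM for testing and the lowest values drawn at the foot of the axis. Arg1, Oaz1, Sat1 and Eif5a stand highest, and Nos2, Otc and Ido2 lie at the foot.

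Around the members, the wider arginine route was measured by 13 tested genes, of which 0 passed the test in either direction (limma, with 1 at an unadjusted p under 0.05) and whose median difference was 0.13 against -0.01 over all tested genes. By size, the most positive differences were those of Oat, which turns ornithine toward proline and glutamate (0.30, SE 0.12, adjusted p = 0.23), Gamt of creatine synthesis (0.30, SE 0.21, adjusted p = 0.50, but 0.10 without AeMM replicate 4 and 0.18 without AeEM replicate 4), and Spr and Pts of tetrahydrobiopterin synthesis (0.22 and 0.20). The most negative were Qdpr (-0.16), Asl (-0.12), Gch1 (-0.11) and Ddah2 (-0.05). Oat, which draws on the same ornithine as Odc1, measured 27.3, 30.1, 35.7 and 34.9 TPM in AeEM and 29.9, 27.0, 22.5 and 23.5 TPM in AeMM. Gatm, which takes arginine into creatine, measured 45.8 to 76.4 TPM in AeEM and 41.5 to 58.8 TPM in AeMM. A further 12 genes of the route lay under the minimum, and Nos3 and Agmat were not analysed here.

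Among the other polyamine genes, 1 of 17 tested genes passed higher in AeEM, Eif5a, and none passed lower. Of all tested genes, 1.25% passed higher and 1.16% lower. Eif5a is the translation factor whose hypusine residue is built from spermidine. It measured 467, 458, 488 and 472 TPM in AeEM and 368, 380, 381 and 347 TPM in AeMM, with every AeEM library above every AeMM library. The Eif5a difference was 0.35 (SE 0.05, 95% interval 0.23 to 0.47, limma adjusted p = 0.0118), and the set-adjusted fit left it short of the threshold (adjusted p = 0.19). Dohh and Dhps, the enzymes that build hypusine, had differences of 0.62 (SE 0.28) and 0.40 (SE 0.18) with adjusted p = 0.30 each, and their groups overlapped.

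The median difference of the 17 polyamine genes was 0.04, and 2 of them (Eif5a and Oaz1) did not overlap between the groups, 11.8% against 12.2% of all tested genes. Oaz1, the antizyme that directs the Odc1 protein to degradation, measured 2905 to 3163 TPM in AeEM and 2630.2 to 2876 TPM in AeMM (difference 0.14, SE 0.05, limma adjusted p = 0.17). Srm, spermidine synthase, measured 34.1 to 47.7 TPM in AeEM and 23.7 to 36.0 TPM in AeMM (difference 0.32, SE 0.15, adjusted p = 0.29). On the side of breakdown, Sat1, the acetyltransferase that tags polyamines for export, was at 1879 to 2137 TPM in AeEM and 1956 to 2329 TPM in AeMM, among the most abundant transcripts here. Sms, spermine synthase, lay at 1.41 to 3.07 TPM in AeEM and 1.44 to 1.82 TPM in AeMM (difference 0.23, SE 0.17, adjusted p = 0.53). The most negative differences in this list were those of Paox (-0.18), Amd1 (-0.13), Sat2 (-0.09) and Sat1 (-0.09).

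Around Acod1, 29 tested genes of itaconate handling and the citrate cycle gave 0 that passed in either direction (limma, with 4 at an unadjusted p under 0.05). Their median difference was 0.08, and 22 of 29 differences were positive (75.9%, against 48.8% of all tested genes). The most positive was Idh3a, a subunit of NAD-dependent isocitrate dehydrogenase, at 9.66, 13.4, 14.0 and 15.3 TPM in AeEM and 10.5, 7.51, 6.06 and 7.81 TPM in AeMM (difference 0.65, SE 0.18, adjusted p = 0.097). It was followed by Mdh2 (0.39, adjusted p = 0.13), Slc25a11 (0.37, adjusted p = 0.092) and Idh3b (0.25, adjusted p = 0.13). Of the 29 genes, only Slc25a11 and Idh3b did not overlap between the groups, 6.90% against 12.2% of all tested genes. Sdha, a subunit of the dehydrogenase that itaconate inhibits, measured 22.9 to 37.4 TPM in AeEM and 31.2 to 35.6 TPM in AeMM. Sdha was among the most negative differences (-0.18), with Aco1 (-0.29), Acly (-0.18) and Auh (-0.10). Hmox1, a target of Nrf2, which itaconate activates, stood at 2942 to 3758 TPM in AeEM and 2891 to 3379 TPM in AeMM (difference 0.15, SE 0.08, adjusted p = 0.41).

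**Figure D4:**
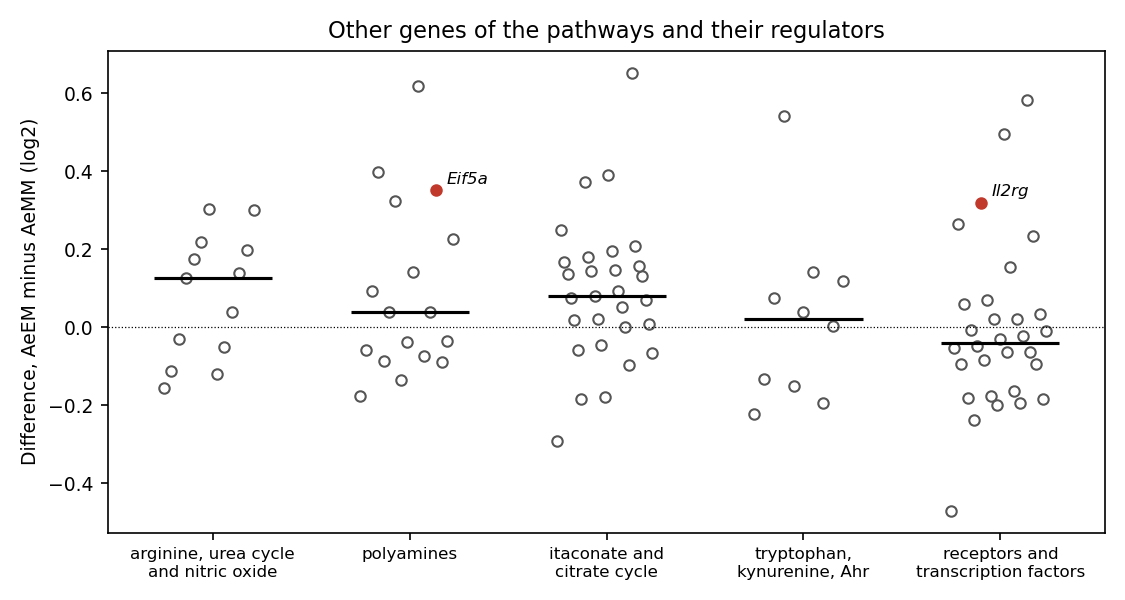
Difference AeEM minus AeMM on the log2 scale for each tested gene of 5 lists of other genes, with a horizontal bar at the list's median and genes past the threshold filled in red. Eif5a at 0.35 and Il2rg at 0.32 are the genes past the threshold in the unpaired fit, and the medians run from -0.04 to 0.13.

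Little of the tryptophan route reached the minimum. Of 28 genes with a row, 10 were tested and 0 passed in either direction (limma, with 2 at an unadjusted p under 0.05), with a median difference of 0.02. Ido2 and Aadat lay at or near 0, Tdo2, the liver enzyme that shares the reaction of Ido1, at 0.341 TPM or less, and Kynu at 0.170 TPM or less. Afmid, which releases kynurenine from its formyl precursor, had the most positive difference (0.54, SE 0.21, adjusted p = 0.21), at 2.498, 1.58, 1.85 and 2.56 TPM in AeEM and 0.836, 1.54, 1.79 and 0.563 TPM in AeMM. It was followed by Ahr, the receptor that kynurenine can bind (0.14), Haao (0.12) and the Ahr target Tiparp (0.07). Atf4, the factor of the amino acid response, measured 177, 157, 164 and 174 TPM in AeEM and 182, 204, 180 and 202 TPM in AeMM without overlap, and its difference did not pass (-0.19, SE 0.07, adjusted p = 0.18). The most negative beside it were the transporters Slc16a10 (-0.22) and Slc7a8 (-0.13) and the tryptophanyl-tRNA synthetase Wars (-0.15).

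Of 30 tested receptors and transcription factors known to control these genes, 1 passed, Il2rg, higher in AeEM, where 1.25% of all tested genes passed higher. Il2rg is the common gamma chain, which pairs with Il4ra in the interleukin-4 receptor. It measured 220, 222, 203 and 237 TPM in AeEM and 174, 174, 168 and 188 TPM in AeMM, with no overlap (difference 0.32, SE 0.07, limma adjusted p = 0.046, and 0.31 in the set-adjusted fit). Its partner Il4ra measured 10.6 to 17.01 TPM in AeEM and 13.7 to 18.1 TPM in AeMM (difference -0.19, SE 0.15, adjusted p = 0.58), and Stat6, the factor below that receptor, 23.4 to 32.2 and 23.5 to 32.6 TPM (difference -0.01). The median difference of the 30 genes was -0.04.

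Factors that bind the Arg1 and Nos2 genes did not pass the test. Cebpb, an activator of Arg1, measured 177, 184, 174 and 235 TPM in AeEM and 287, 275, 282 and 223 TPM in AeMM, with the difference at -0.47 (SE 0.12, limma adjusted p = 0.076) and replicate 4 of each group near the other. Without AeEM replicate 4 the Cebpb difference was -0.57 (limma adjusted p = 0.028), and without AeMM replicate 4 it was -0.55 (limma adjusted p = 0.052). Of these fits, Cebpb passed only in that without AeEM replicate 4. In the set-adjusted fit the limma adjusted p was 0.32. Klf4 (0.58, adjusted p = 0.17), Irf4 (0.50, adjusted p = 0.30), Myc (0.26, adjusted p = 0.36) and Myd88 (0.24, adjusted p = 0.29) had the most positive differences after Il2rg was set aside, and Socs3 (-0.24), Tyk2 (-0.20) and Il4ra (-0.19) the most negative after Cebpb. Ifngr1, a chain of the receptor for interferon-gamma, which induces Nos2 and Ido1, stood at 82.6 to 85.5 TPM in AeEM and 74.3 to 85.3 TPM in AeMM.

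The genes whose levels followed those of the members most closely over the 8 libraries are given as a description, with no test, since the libraries share the authors' adjustment and there are only 8 of them. For Arg1 they were Tbl2 (Pearson's r = 0.99), Paqr9 (0.98) and Isoc2b (0.98), among 89 genes with r over 0.9. For Odc1 they were Nsrp1, Fam126a and Sugp1 (each 0.99), for Acod1 Ints6l (0.99), Npm1 (0.99) and Mettl22 (0.98), and for Slc7a2 Errfi1 (0.99), Oas1c (0.98) and Yipf4 (0.98), among 90, 136 and 110 genes with r over 0.9. Between the members, Arg1 and Slc7a2 gave r = 0.90 with Spearman's rho = 0.62 (AeEM replicate 3 was the highest library for both), and the other 5 pairs gave r between -0.23 and 0.54.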

How the data were processed

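Macrophages were sorted by flow cytometry from ascites, and Smart-seq2 libraries were sequenced, trimmed with fastp, mapped with STAR 2.7.2a to mm10 and counted with Subread featureCounts, per the study's methods and the submitters' processing notes. The deposited values are log2(TPM + 1), which the authors had adjusted between 3 sets (the pair of replicate 1, the pair of replicate 2, and the other 4 libraries), as shown by set means that differed by a median of 0.0102 over the tested genes. The TPM conversion, log, adjustment, annotation and strandedness are not given in the sources used here. Such an adjustment fixes the mean of each set, so a level is relative within its set, and genes can hold a single repeated value in every library of a set (4110, 5188 and 4980 genes in the 3 sets, of which 29, 16 and 10 were tested). TPM was recovered as 2 to the power of the value, minus 1, with values below 0 set to 0. The recovered TPM summed to 958862 to 974303 per library. Depth is unknown, so no counting interval is given. Precision rests on 4 libraries per group, which the adjustment leaves dependent within a set. The unpaired fit treats all 8 libraries as independent, with 6 residual degrees of freedom. Its p-values can therefore be too small and its intervals too narrow.

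AeEM minus AeMM was tested in limma 3.58.1 (R 4.3.3), unpaired and with eBayes' trend option, in the 8801 genes whose mean reached 1 TPM, and p-values were Benjamini-Hochberg adjusted. The script was tested on simulated data. The labels call the libraries biological replicates and do not say that equal numbers share a mouse. The members and gene lists were chosen with earlier results of these data known. Named were the members, of each list every gene past the threshold and otherwise up to 4 per direction by size, and the 3 genes most correlated with each tested member, leaving out Gm and Rik symbols, pseudogenes and receptor segments. Other genes given with values were chosen for their role beside a member, after their values were seen. Slc3a2 stands in 3 of the lists. Some genes are counted in their list and not reported here by name. A planned exact permutation test of Arg1 minus Nos2 was not run, because Nos2 did not pass the minimum. Alternatives changed the pseudocount (0.1 and 5), the minimum (none and 5 TPM), the scaling, the trend, the sets, the replicate block and the libraries included. Positions came from GENCODE M21 (GRCm38, the assembly of mm10), where 98.1% of the table's symbols had one.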

Additional observations from a re-analysis of the deposited data

Results flagged for a closer look

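In 94 groups of 4 libraries (5 members and 42 other named genes, each in AeEM and in AeMM), 9 held a library whose gap to its nearest neighbor, as a share of the group's range, was over Dixon's critical value for 4 values. For independent values chance gives about 4.7 (1 in 20). The adjustment between sets ties libraries to each other, so the count of 9 cannot be read against that number. Values are log2(TPM + 1). Among the members, Ass1 in AeEM replicate 4 was low at 0.37 against 0.90 to 0.94 in the other AeEM libraries, and Slc7a2 in AeEM replicate 3 was high at 2.57 against 1.51 to 1.68. In the AeMM group, replicate 3 was low for Acly (4.01), Slc25a11 (6.95) and the signaling inhibitor Socs3 (4.31), where the other 3 libraries lay at 4.65 to 4.67, 7.27 to 7.29 and 4.93 to 4.96. AeMM replicate 4 was low for Gamt (3.88 against 4.63 to 4.72) and Cebpb (7.81 against 8.11 to 8.17). AeMM replicate 2 was low for Qdpr (3.83 against 3.99 to 4.02) and high for Sdha (5.20 against 5.01 to 5.03). Nos2 and Il4i1 were left out, since their values lie at or near 0.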

How the results depend on the processing

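No tested member passed under any alternative that was run (Arg1 and Odc1 alone were tested at a minimum of 5 TPM, and all 7 listed members with no minimum), and the differences of Arg1, Odc1 and Slc7a2 kept their sign. Each library left out in turn gave 0.11 to 0.24 for Arg1, 0.02 to 0.35 for Odc1, 0.00274 to 0.36 for Slc7a2 and -0.0155 to 0.318 for Acod1, negative only without AeEM replicate 3. Arg1 reached an unadjusted p under 0.05 with median-of-ratios scaling (limma adjusted p = 0.20), quantile normalization (limma adjusted p = 0.21) and without AeEM replicate 1 or 4 (limma adjusted p = 0.33 and 0.22). The calls over all genes were less stable. Genes higher in AeEM went from 110 to 9 with the 3 sets as a term, 0 with replicates 3 and 4 only (566 genes at an unadjusted p under 0.05 in limma) and 3 with the replicate block, and genes lower from 102 to 5, 0 and 2, and to 58 with no trend. With a library left out they ranged from 40 to 106 higher and from 31 to 113 lower, more than 1.5 times below the full counts without replicate 1 or 2 of either group or AeMM replicate 4. With replicates 3 and 4 only, the sign reversed for Ddah2 (0.0697), Amd1 (0.0298), Acly (0.144), Slc7a8 (0.0787), Haao (-0.10) and Socs3 (0.0879), and with a library left out for Ddah2 (-0.25 to 0.11), Sat2 (-0.34 to 0.19) and Haao (-0.0294 to 0.34). None of these had passed the test, and the cause was not tested. Eif5a lost its call with no trend (adjusted p = 0.065), with the 3 sets (0.19), with replicates 3 and 4 only (0.68), with the replicate block (0.20) and without AeEM or AeMM replicate 1 (0.053 and 0.055), and Il2rg in 14 of 18 alternatives. Mdh2 passed without AeMM replicate 3 (adjusted p = 0.041) and Idh3b with quantile normalization (0.034). Equal replicate numbers are not stated to pair the libraries: the deviations of same-numbered libraries correlated at -0.99, -0.999, -0.20 and -0.13, a check that the adjustment makes void, and the Arg1 adjusted p with the replicate block was 0.59. Arg1 minus Nos2 and its alternatives were not run. With 4 libraries per group and no read counts, the intervals of the 4 tested members all include 0 and leave their differences unresolved.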

Other observations

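Among the genes of these routes under the minimum of 1 TPM, those with the largest differences in the fit with no minimum, over all 23469 genes, are named here after their values were seen. Tested genes of these routes had larger differences in that fit, such as Idh3a (0.65) and Dohh (0.62). Aldh18a1, which makes the proline precursor from glutamate and so meets the ornithine route, measured 1.14, 1.17, 1.38 and 0.942 TPM in AeEM and 0.579, 0.564, 0.490 and 0.660 TPM in AeMM, with no overlap (difference 0.45, SE 0.09, 95% interval 0.23 to 0.68, limma adjusted p = 0.12). Qprt, which takes the kynurenine route into NAD, measured 0.485, 0.441, 0.107 and 0.477 TPM in AeEM and 0, 0, 0.107 and 0.107 TPM in AeMM (difference 0.40, SE 0.11, limma adjusted p = 0.21), and its value of 0.107 is repeated in 3 of the 4 libraries of replicates 3 and 4. Kmo, which hydroxylates kynurenine, measured 1.94, 1.57, 0.961 and 0.458 TPM in AeEM and 0.115, 0.232, 0.935 and 0.788 TPM in AeMM, so that its groups overlapped in replicates 3 and 4 (difference 0.55, SE 0.28, limma adjusted p = 0.52). The most negative was Kyat1, lower in AeEM with no overlap (difference -0.35, SE 0.17, limma adjusted p = 0.50). None of these passed the test, and 12.2% of the 8801 tested genes did not overlap between the groups.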
